A study of Homo sapiens with 5 samples.

Results

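The 10 genes HIF1A, VEGFA, BNIP3, ADM, NDRG1, P4HA1, ANKRD37, EGLN3, DDIT4 and BNIP3L were followed across 5 single-cell libraries, out of 32732 human genes listed for every library. They were chosen by name as genes of the cellular response to low oxygen, with earlier results of these data known. From these libraries the study had already reported HIF1A and VEGFA as high before grafting and decreased in grafts. Counts of the 10 genes called are therefore no independent test of the list. All 10 were found in every table. The cells came from brain organoids of H9, an established human embryonic stem cell line, labelled as wild type (WT). According to the methods of the study, the derivative that was sequenced carried AAVS-ChR2-EYFP, a light-gated channel joined to a yellow fluorescent protein. D0 held organoids on culture day 42, before grafting. HIP_2MPT, PFC_2MPT, HIP_4MPT and PFC_4MPT held grafts from the hippocampus (HIP) or prefrontal cortex (PFC) of immunodeficient SCID mice (also written SCID-Beige by the study), at 2 or 4 months post transplantation (MPT). The grafts were dissected by their EYFP signal from the brains of several hosts, and how many animals entered each library was not stated in the labels.

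Each condition had 1 library, so the HIP and PFC libraries of a stage served as its 2 replicates and D0 had none. The human cells numbered 34390 in all, 4885 of them in D0 and 5952 to 8363 in each graft library. Their median depth was 9847 unique molecular identifiers (UMIs, tags that count each captured RNA molecule once) in D0 and 1253 to 2759 in the grafts. D0 was dissociated with TrypLE and the grafts with Trypsin-EDTA, and the count tables of D0 and of the grafts came from different Cell Ranger releases and gene annotations. These differences and the time of culture coincide with grafting, and in these libraries their effects cannot be told apart from it. The study also compared organoids kept longer in culture with its 2MPT grafts, and again reported a relief of the stress response in grafts. That sample is not among the 5 libraries. Over the 10 pairs of libraries, 6 to 20 cell barcodes were shared, at most 0.289% of a library's cells. PFC_4MPT stood apart by its mitochondrial share, with a median of 7.31% against 2.35% to 3.77% in the other libraries.

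Cells respond to low oxygen mainly through hypoxia-inducible factors (HIFs), which pair an oxygen-regulated alpha subunit such as HIF1A with the stable subunit ARNT. In oxygen, prolyl hydroxylases of the EGLN family mark HIF1A for destruction by the VHL ubiquitin ligase, so HIF1A is set largely at the level of protein and its RNA does not report that step. When oxygen falls, HIF1A accumulates and raises genes for blood vessel growth (VEGFA, ADM), mitochondrial clearance (BNIP3, BNIP3L), collagen modification (P4HA1), restraint of mTOR signalling (DDIT4) and feedback on the pathway itself (EGLN3). ANKRD37 and NDRG1 are also widely used as markers of hypoxia. DDIT4 answers to other stresses and to glucocorticoids as well, and NDRG1 to differentiation. Brain organoids in culture have no blood vessels, and their inner cells depend on oxygen that diffuses from the surface.

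HIFs bind hypoxia response elements, whose core reads ACGTG or GCGTG. The promoter windows of 4 of the genes are shown. ANKRD37, BNIP3 and DDIT4 were lower in grafts, and their windows held more of these cores than any other window used. No window was used for VEGFA, NDRG1 and BNIP3L. P4HA1, ADM and EGLN3 were also lower, and their windows, with fewer cores, are not printed. The RNA of HIF1A differed least among the genes called. Each window runs from 250 bases before to 50 bases after the start of transcription, 5′ to 3′ on the strand of the gene, from RefSeq on GRCh38.p14. The windows lie at chr4:185396591-185396890 (plus strand) for ANKRD37, chr10:72273674-72273973 (plus strand) for DDIT4, chr10:131981874-131982173 (minus strand) for BNIP3 and chr14:61695263-61695562 (plus strand) for HIF1A. Capitals mark ACGTG or GCGTG on either strand, so CACGT and CACGC are the same cores read on the other strand, and CACGTG holds ACGTG on both.
ANKRD37: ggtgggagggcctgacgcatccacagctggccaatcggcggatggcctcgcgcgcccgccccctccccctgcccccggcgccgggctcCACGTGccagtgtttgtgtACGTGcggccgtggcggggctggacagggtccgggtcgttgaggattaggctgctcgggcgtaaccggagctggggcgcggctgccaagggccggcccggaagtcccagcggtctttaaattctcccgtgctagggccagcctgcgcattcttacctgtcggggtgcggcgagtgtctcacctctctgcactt
DDIT4: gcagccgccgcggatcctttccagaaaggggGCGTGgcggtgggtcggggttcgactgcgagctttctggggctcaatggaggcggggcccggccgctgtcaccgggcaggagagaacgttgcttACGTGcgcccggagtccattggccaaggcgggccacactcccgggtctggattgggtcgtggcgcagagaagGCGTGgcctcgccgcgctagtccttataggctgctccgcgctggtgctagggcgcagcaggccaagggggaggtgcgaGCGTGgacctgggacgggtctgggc
BNIP3: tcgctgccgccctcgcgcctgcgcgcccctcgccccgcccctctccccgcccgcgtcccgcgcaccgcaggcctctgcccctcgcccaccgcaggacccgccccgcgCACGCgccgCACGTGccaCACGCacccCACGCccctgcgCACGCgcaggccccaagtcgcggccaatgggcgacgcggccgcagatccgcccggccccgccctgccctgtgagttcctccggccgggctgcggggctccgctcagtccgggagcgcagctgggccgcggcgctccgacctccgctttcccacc
HIF1A: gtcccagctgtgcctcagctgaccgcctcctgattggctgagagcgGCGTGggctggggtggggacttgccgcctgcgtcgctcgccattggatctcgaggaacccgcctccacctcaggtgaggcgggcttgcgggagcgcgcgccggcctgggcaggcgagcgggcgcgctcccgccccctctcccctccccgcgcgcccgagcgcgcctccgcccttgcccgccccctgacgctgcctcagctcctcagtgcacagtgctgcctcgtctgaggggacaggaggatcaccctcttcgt

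The window of BNIP3 held 2 matches to ACGTG and 4 to GCGTG, the latter all on the opposite strand, and that of DDIT4 held 1 and 3. ANKRD37 had 3 matches to ACGTG, 2 of them from 1 CACGTG, and none to GCGTG. P4HA1 had 1 ACGTG, ADM had 1 GCGTG, and the window of EGLN3 held neither. The gene HIF1A has 2 entries, of which the one printed held 1 GCGTG and the other none. A RefSeq window was used for 7 of the 10 genes, the others being VEGFA, NDRG1 and BNIP3L. Windows of the genes on chromosome 8, where NDRG1 and BNIP3L lie, were left out, so their cores were not counted. Among all 35116 promoter windows of this length, 21.4% held ACGTG, 36.5% held GCGTG, 48.5% held either, and 4.40% held at least 4 matches in all. A match says only that these letters occur in the window.

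All of the 10 genes except NDRG1 were more abundant in D0 than in any graft. The share of all genes with that order was not counted. Over the highest graft the excess ran from 1.17-fold for HIF1A to 15.5-fold for DDIT4. The largest parts of their sum in D0 were DDIT4 (595 CPM), BNIP3 (438 CPM) and BNIP3L (409 CPM). Together the 10 genes gave 2006 CPM in D0 (UMIs of a gene scaled to a common total of human UMIs), against 280 (HIP) and 336 (PFC) at 2MPT, and 382 (HIP) and 416 (PFC) at 4MPT. By edgeR's quasi-likelihood test on UMI sums per library, 9 of the 10 genes were lower in grafts than in D0 at a Benjamini-Hochberg adjusted p under 0.05, while 24.1% of the 19074 genes tested were called lower. The median log2 fold change of the 10 genes was -2.54, and that of all genes tested was 0.06. NDRG1 was the gene that was not called. In bulk sums of this kind, fewer cells of a type and less RNA per cell cannot be told apart. In this test D0, with 1 library, was assumed to vary like the graft libraries, and all p-values measure the spread between libraries. Scaling by library totals in place of TMM shifted the median of all genes to 0.41, and 8 of the 10 genes were then called lower. The 24.1% belongs to the fit with TMM, and the share with library totals is not given here.

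**Figure D1:**
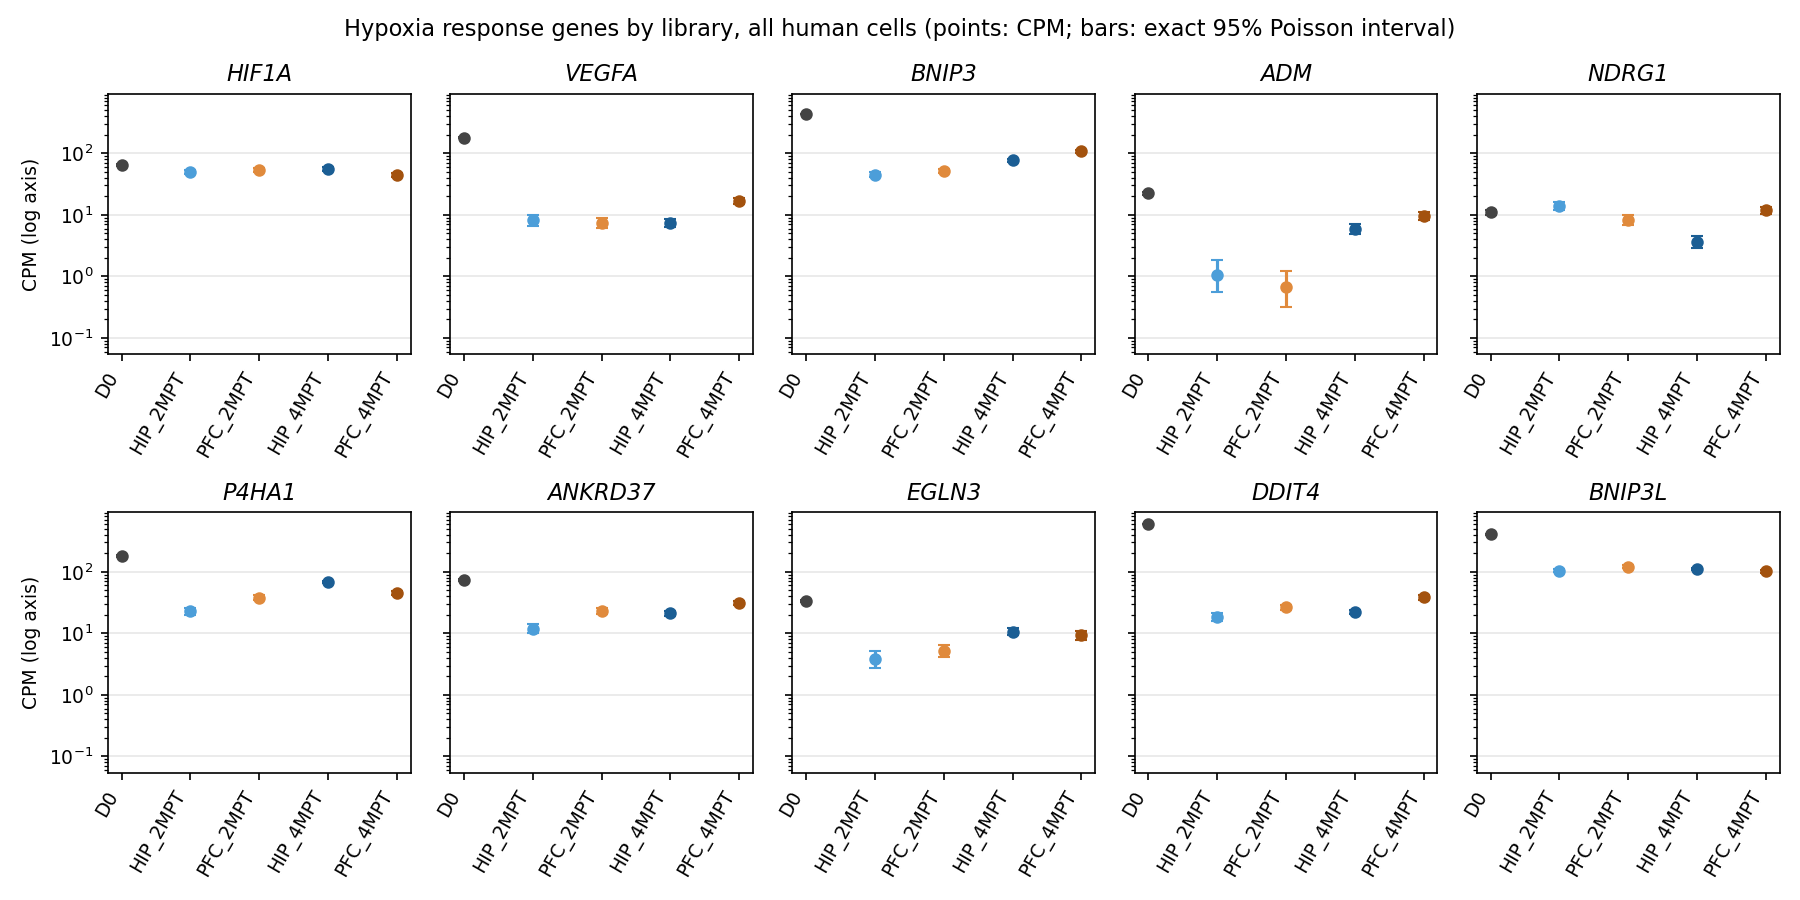
Each panel plots 1 gene in the 5 libraries over all human cells, as CPM on a log axis with exact 95% Poisson intervals. D0 lay above all 4 grafts for every gene except NDRG1, from 65.2 against at most 55.6 CPM for HIF1A to 595 against at most 38.3 CPM for DDIT4.

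Among the secreted vascular signals, VEGFA (chr6:43770184-43786487, plus strand, GRCh38), the principal growth factor of blood vessels, measured 178 CPM in D0, 8.13 and 7.33 in the HIP and PFC grafts of 2MPT and 7.36 and 17.0 in those of 4MPT. All grafts lay at least 10.5-fold below D0, and PFC_4MPT was the highest of them. The log2 fold change of VEGFA in grafts was -4.52 ± 0.33 (SE), with an adjusted p of 5.22e-06 by edgeR. ADM encodes adrenomedullin, a peptide that widens vessels and tightens their wall. Its level was 22.3 CPM in D0, 1.07 (HIP) and 0.66 (PFC) at 2MPT, and 5.97 (HIP) and 9.73 (PFC) at 4MPT. The groups did not overlap, and both 4MPT libraries lay above both 2MPT libraries, with a log2 fold change of -3.43 ± 0.35 between grafts and D0 (edgeR adjusted p = 2.85e-05).

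DDIT4, an inhibitor of the growth kinase complex mTORC1, fell the most by log2 fold change among the 10 genes. It measured 595 CPM in D0, against 18.6 and 26.4 in the HIP and PFC grafts of 2MPT and 22.2 and 38.3 in those of 4MPT. The ratio of D0 to the mean of the grafts (26.4 ± 8.57 CPM, SD, n = 4) was 22.6, and the log2 fold change was -4.83 ± 0.30 (edgeR adjusted p = 2.42e-06).

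The paired mitophagy receptors BNIP3 and BNIP3L, which sit on the outer mitochondrial membrane and recruit the autophagy machinery, were both lower in grafts. BNIP3 measured 438 CPM in D0, 45.1 (HIP) and 51.5 (PFC) at 2MPT, and 77.1 (HIP) and 107 (PFC) at 4MPT (log2 fold change -3.04 ± 0.24, edgeR adjusted p = 8.13e-06). The grafts did not reach D0, and again both 4MPT libraries exceeded both 2MPT libraries. BNIP3L measured 409 CPM in D0 and stayed between 101 and 122 CPM in the 4 grafts (109 ± 8.98, SD), with a log2 fold change of -2.23 ± 0.22 (edgeR adjusted p = 2.43e-05). BNIP3 has pseudogenes in the human annotation, and reads that fit a copy equally well may be lost or misplaced.

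P4HA1, a catalytic subunit of collagen prolyl 4-hydroxylase, measured 181 CPM in D0, 22.9 and 38.1 in the HIP and PFC grafts of 2MPT and 68.3 and 45.0 in those of 4MPT (log2 fold change -2.45 ± 0.28, edgeR adjusted p = 6.26e-05). EGLN3, a prolyl hydroxylase that is itself raised by HIFs and feeds back on them, measured 33.3 CPM in D0 and 3.84, 5.15, 10.6 and 9.31 CPM in HIP_2MPT, PFC_2MPT, HIP_4MPT and PFC_4MPT (log2 fold change -2.64 ± 0.27, edgeR adjusted p = 2.77e-05). ANKRD37, an ankyrin repeat protein, measured 73.3 CPM in D0 and 11.9, 22.9, 21.3 and 31.0 CPM in the same order of grafts (log2 fold change -2.10 ± 0.32, edgeR adjusted p = 0.000391). For these 3 genes every graft lay below D0, and HIP_2MPT was the lowest graft each time. EGLN3 overlaps SPTSSA on the same strand in the annotation, so its counts carry that uncertainty.

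HIF1A and NDRG1 departed from the other genes. HIF1A measured 65.2 CPM in D0, 50.1 (HIP) and 54.2 (PFC) at 2MPT, and 55.6 (HIP) and 44.8 (PFC) at 4MPT. All grafts were below D0, by 1.17-fold to 1.46-fold. The log2 fold change was -0.68 ± 0.24 with an adjusted p of 0.0311 by edgeR, and this call was lost with DESeq2 (adjusted p = 0.0546), with library totals (log2 fold change -0.33, adjusted p = 0.272), without HIP_2MPT (adjusted p = 0.0575) and without PFC_4MPT (adjusted p = 0.0943). NDRG1, a protein of differentiating and stressed cells, measured 10.9 CPM in D0, 13.9 and 8.26 in the HIP and PFC grafts of 2MPT and 3.68 and 11.9 in those of 4MPT. Its grafts lay on both sides of D0, and its log2 fold change of -0.56 ± 0.51 did not pass the test (edgeR adjusted p = 0.378).

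D0 and the grafts differed in their makeup of cells, so the genes were also compared within cell classes. Cells were clustered on genes that excluded the 10 genes and the related HIF lists, and clusters were named from marker genes, with "-like" added. Radial glia-like and cycling progenitor-like clusters formed the progenitor-like class. Intermediate progenitor-like clusters were counted as neuron-like, together with all neuron clusters. In D0, 47.2% of cells were progenitor-like and 37.7% neuron-like, while neuron-like cells made up 66.4% to 88.4% of the grafts. The study set its own classes. Its percentages of neurons are not compared with these shares, because it did not state the total they refer to. Astrocyte-like cells numbered 98 in D0 and 362 to 702 in each graft. Choroid-plexus-like cells, of the tissue that makes cerebrospinal fluid, numbered 389 in D0 and 0 or 1 in each graft, and the summed level of 7 choroid plexus markers was 6153 CPM in D0 and 5.10 to 12.4 CPM in grafts. Radial glia markers summed to 5312 CPM in D0 and 613 to 1731 CPM in grafts, and neuron markers to 1748 and 3265 to 7935 CPM, so both kinds of neural cell were present in every library.

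**Figure D2:**
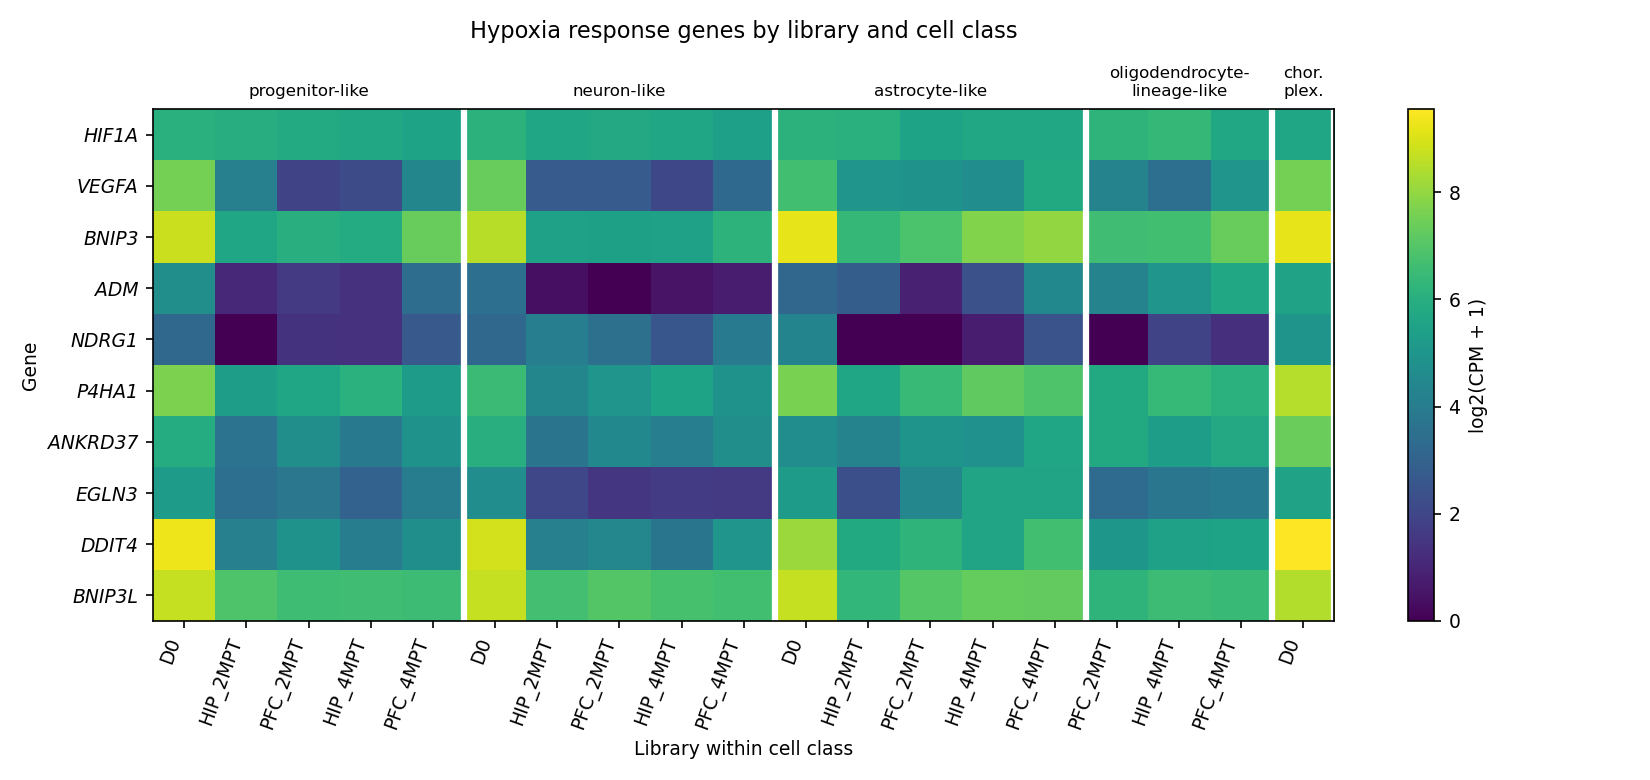
Color gives log2(CPM + 1) for each gene (vertical axis) in each library within a cell class (horizontal axis), for classes with at least 50 cells in a library; the last column holds choroid-plexus-like cells of D0. VEGFA, DDIT4, BNIP3 and BNIP3L were brightest in the D0 column of the progenitor-like, neuron-like and astrocyte-like classes, whereas EGLN3 in astrocyte-like cells reached 47.3 CPM in HIP_4MPT against 37.4 CPM in D0.

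In progenitor-like cells, 9 of the 10 genes were lower in grafts than in D0 by edgeR, against 19.0% of the 13583 genes tested. Their median log2 fold change was -2.34. DDIT4 measured 641 CPM in progenitor-like cells of D0, 17.0 (HIP) and 28.2 (PFC) at 2MPT, and 15.7 (HIP) and 25.9 (PFC) at 4MPT, so that the grafts were far below D0 (log2 fold change -5.14 ± 0.29, adjusted p = 5.74e-09). VEGFA in these cells measured 186 CPM in D0 and 2.90 to 19.98 CPM in grafts. The exception was HIF1A, at 65.5 CPM in D0 and 45.9 to 61.2 CPM in grafts, with a log2 fold change of -0.58 ± 0.28 and an adjusted p of 0.102.

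In neuron-like cells, 8 genes were lower in grafts by edgeR, with a median log2 fold change of -2.53 over the 10 genes, against 20.5% of the 17618 genes tested. VEGFA measured 161 CPM in neuron-like cells of D0, 5.77 and 5.69 in the HIP and PFC grafts of 2MPT and 3.24 and 8.62 in those of 4MPT. No graft came near D0 for VEGFA (log2 fold change -4.90 ± 0.34, adjusted p = 1.04e-06). ADM measured 10.2 CPM in D0, and in the grafts it rested on 0 to 7 UMIs per library, or 0.00 to 0.67 CPM. The 0 UMIs of PFC_2MPT allow a level of up to 0.27 CPM (3 UMIs), and the fitted log2 fold change of -5.26 ± 0.59 depends on the prior count. HIF1A (log2 fold change -0.66 ± 0.26, adjusted p = 0.0539) and NDRG1 (0.37 ± 0.50, adjusted p = 0.568) were the genes not called.

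**Figure D3:**
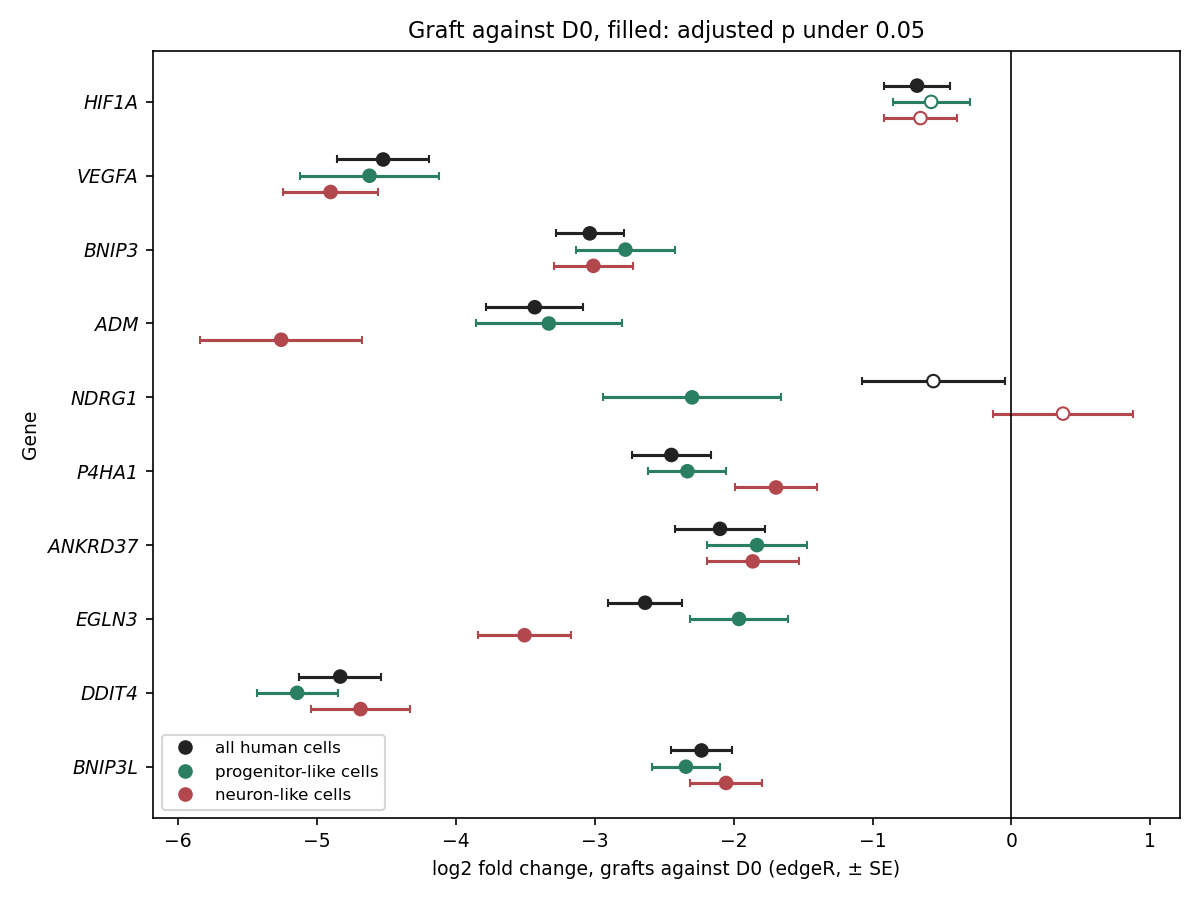
Points are log2 fold changes of grafts against D0 by edgeR with standard errors as bars, for all human cells, progenitor-like cells and neuron-like cells, and filled points have an adjusted p under 0.05. DDIT4 and VEGFA lie furthest to the left in progenitor-like cells, and NDRG1 lies at -2.30 in progenitor-like but 0.37 in neuron-like cells.

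The effect of grafting was compared between neuron-like and progenitor-like cells in 1 model over both classes (10 sums, 3 residual degrees of freedom), a test added after the data had been seen. The difference passed for 2 of the 10 genes, NDRG1 and EGLN3, against 5.63% of the 18595 genes tested. NDRG1 in progenitor-like cells measured 8.02 CPM in D0, 0.00 (HIP) and 1.66 (PFC) at 2MPT, and 1.57 (HIP) and 5.40 (PFC) at 4MPT. The graft values rested on 0, 4, 4 and 10 UMIs, and the 0 UMIs of HIP_2MPT allow a level of up to 3.40 CPM (3 UMIs). The log2 fold change of NDRG1 in progenitor-like cells ranged from -5.32 (without PFC_2MPT) to -1.95 (without HIP_4MPT) over the alternatives. In neuron-like cells it measured 8.16 CPM in D0 and 15.9, 10.7, 4.86 and 14.7 CPM in the same order of grafts. Grafts were thus all below D0 in progenitor-like cells, while in neuron-like cells 3 of 4 were above it, and the difference of the log2 fold changes was 2.24 ± 0.57 (edgeR adjusted p = 0.0225). Most neuron-like cells of D0 (1091 of 1840) lay in a cluster with 0 to 3 cells of each graft. In matched intermediate progenitor-like clusters, D0 was above every graft (11.8 against at most 7.01 CPM, 30.9 against at most 18.5), with 95% Poisson intervals that were not apart. It was below every graft in 1 neuron-like cluster (1.75 against at least 9.64 CPM), where the interval of D0 (0.04 to 9.73) reached past the lowest graft. In the cluster led by heat shock genes, with 58 cells in D0, D0 was below the 2 grafts that could be measured (8.86 against at least 12.4). In other matched neuron-like clusters D0 lay within the range of the grafts. The part of cluster makeup was not tested.

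EGLN3 showed the opposite order, with the larger fall in neuron-like cells. There it measured 24.4 CPM in D0 and 1.87 to 3.09 CPM in grafts, against 36.7 CPM in D0 and 7.04 to 15.7 CPM in grafts among progenitor-like cells. The difference was -1.63 ± 0.40 (edgeR adjusted p = 0.0196). With DESeq2 neither difference passed (adjusted p = 0.242 for NDRG1 and 0.193 for EGLN3), and without PFC_4MPT that of EGLN3 did not (adjusted p = 0.0719). The difference for ADM was -1.91 ± 0.65 (edgeR adjusted p = 0.0989).

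Classes also differed within the grafts, and these values are given without a test. VEGFA was higher in astrocyte-like than in neuron-like cells in each of the 4 grafts, at 30.5 and 29.1 CPM in astrocyte-like cells of the HIP and PFC grafts of 2MPT and 25.0 and 54.9 CPM in those of 4MPT, against 3.24 to 8.62 CPM in neuron-like cells. DDIT4 followed this order, at 46.3 to 99.6 CPM in astrocyte-like and 12.2 to 30.6 CPM in neuron-like cells of the grafts. Astrocytes are a known source of VEGFA in the brain. All astrocyte-like values of VEGFA and DDIT4 in grafts stayed below the 101 and 275 CPM of astrocyte-like cells in D0, as did those of P4HA1 (48.9 to 147 against 199 CPM) and BNIP3L (79.4 to 157 against 416 CPM). ANKRD37 was the other way round in 3 of 4 grafts, at 18.3 to 49.2 CPM against 24.6 CPM in D0.

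Oligodendrocyte-lineage-like cells could be measured in 3 grafts, PFC_2MPT and both of 4MPT, and had too few cells in D0. BNIP3 there measured 97.2 CPM at 2MPT and 99.4 (HIP) and 161 (PFC) CPM at 4MPT. ANKRD37 measured 55.5, 39.5 and 52.9 CPM and HIF1A 74.0, 81.4 and 51.9 CPM in the same libraries. EGLN3 measured 12.3 CPM (HIP, 95% interval 8.92 to 16.6) and 14.7 CPM (PFC, 9.91 to 21.0) in these cells at 4MPT, below its level in astrocyte-like cells of the same libraries. In PFC_2MPT it rested on 2 UMIs, too few to place it.

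To compare cells of more closely matched types, levels were set side by side within single clusters. There were 12 clusters with at least 50 cells both in D0 and in at least 1 graft. DDIT4, VEGFA and BNIP3L were higher in D0 than in every such graft in all 12, with 95% Poisson intervals that lay apart in all 12 as well. BNIP3 was highest in D0 in 12 clusters and its intervals were apart in 11. For P4HA1 these counts were 12 and 9, for ANKRD37 11 and 7, for EGLN3 11 and 5, and for ADM 11 and 3. HIF1A was highest in D0 in 6 of the 12 clusters with intervals apart in 2, and NDRG1 in 5 with intervals apart in 1. How often other genes were highest in D0 was not counted. The intervals cover counting error only. The neuron-like cells of D0 lay mostly in 1 cluster (1091 of 1840 cells) that held 0 to 3 cells of each graft, which has no counterpart to compare.

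Within D0, the 10 genes differed between clusters to unequal degrees. DDIT4 ranged over 14 clusters from 272 CPM (95% interval 241 to 306) in astrocyte-like cells to 1365 CPM (1243 to 1495) in a neuron-like cluster whose leading genes were heat shock genes such as HSPA1A. P4HA1 ranged from 59.1 to 358 CPM and ANKRD37 from 23.6 to 164 CPM, both highest in choroid-plexus-like cells, as was ADM at 44.3 CPM. BNIP3L varied 1.93-fold and HIF1A 1.96-fold. When the choroid-plexus-like cells were left out, 9 of the 10 genes were again lower in grafts. The share of all genes called lower is given only for the fit with all cells (24.1%).

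**Figure D4:**
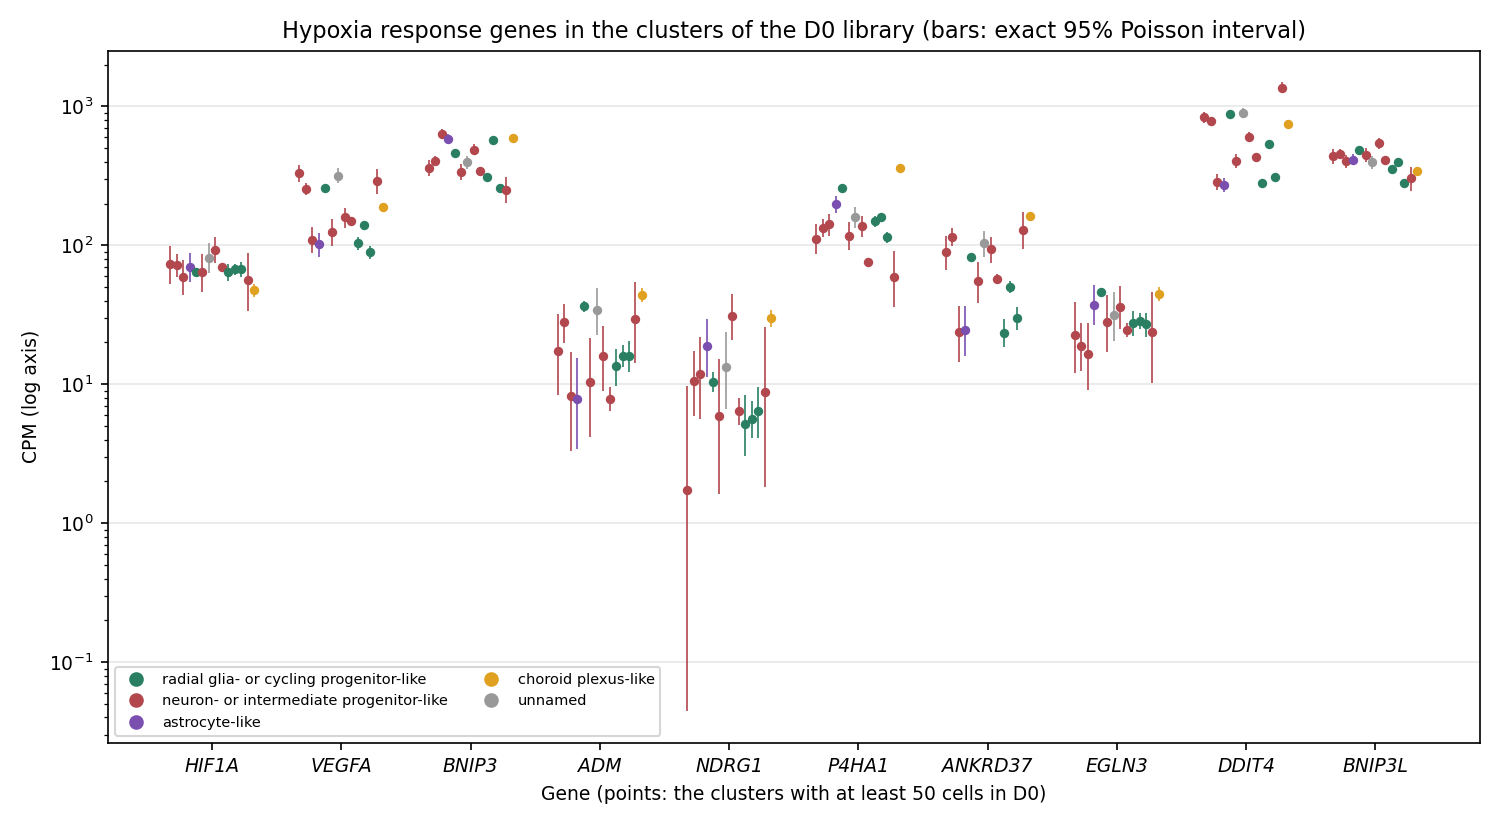
Each point is 1 of the 14 clusters with at least 50 cells in D0, colored by its named type, with CPM on a log axis and exact 95% Poisson intervals. NDRG1 spans 1.75 (interval 0.04 to 9.73) to 30.9 CPM and DDIT4 272 to 1365 CPM, while HIF1A spans 47.4 to 92.8 CPM.

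The genes were also counted together within single cells. Each cell was thinned to 1000 UMIs, which left out 282 cells of D0 and 183 to 1732 cells of each graft, and the number of the 10 genes with a UMI was counted. In D0, 21.9% of thinned cells (95% Clopper-Pearson interval 20.7% to 23.1%) held at least 3 of the genes. The share was 0.12% and 0.32% in the HIP and PFC grafts of 2MPT and 0.48% and 0.90% in those of 4MPT, with no graft interval above 1.14%. Without thinning the shares were 79.7% in D0 and 0.43%, 3.85%, 8.51% and 4.83% in the grafts in that order. Cells with none of the 10 genes made up 24.0% of thinned cells in D0 and 69.7% to 76.2% in grafts. Free RNA in the droplets can add single UMIs to any cell, and its part in these shares was not tested.

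**Figure D5:**
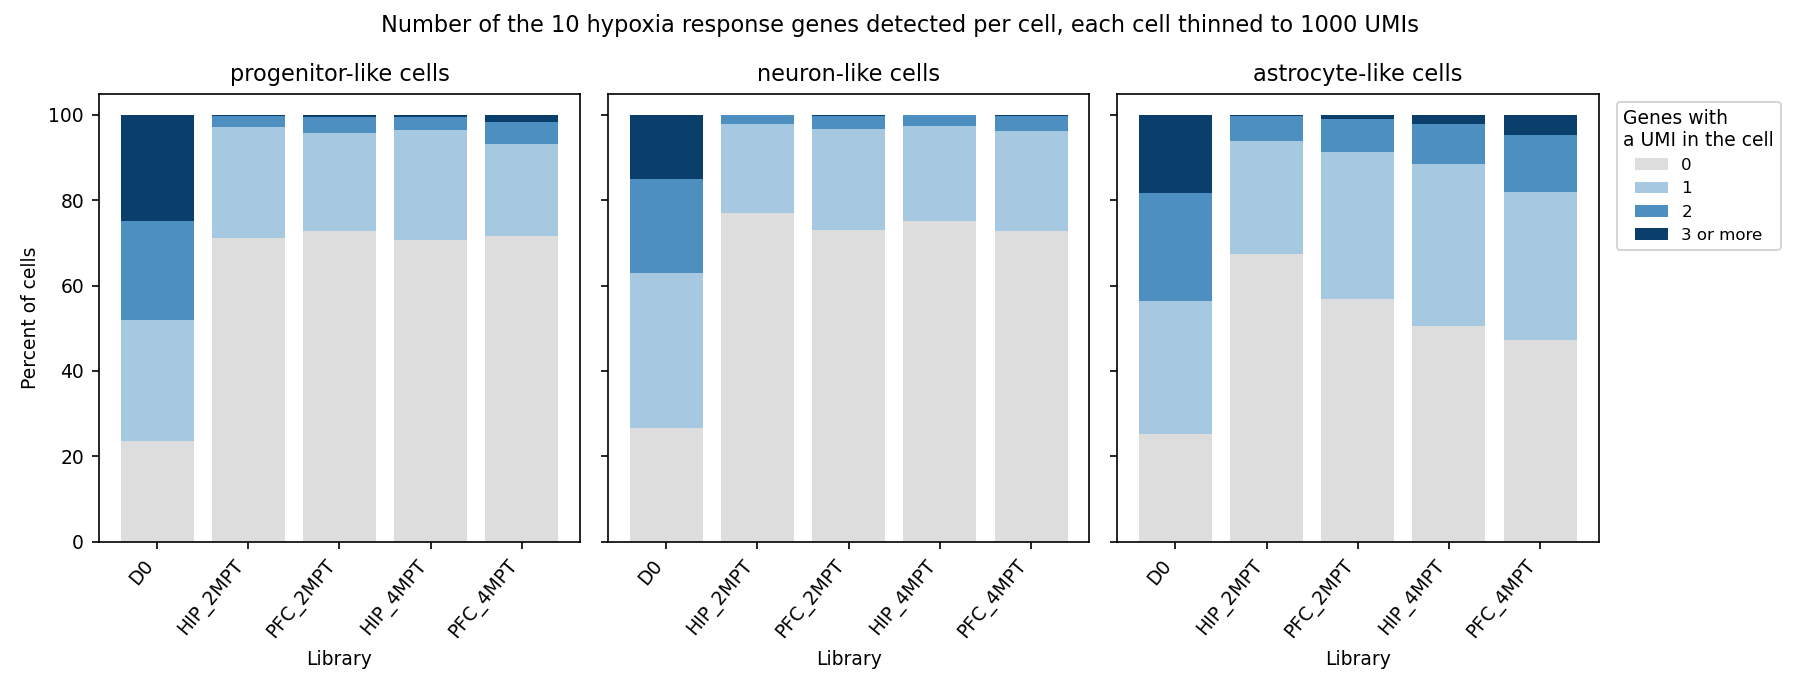
Stacked bars give the percent of thinned cells (1000 UMIs each) with a UMI of 0, 1, 2 or at least 3 of the 10 genes, by library within progenitor-like, neuron-like and astrocyte-like cells. The darkest segment covers 24.9%, 15.1% and 18.4% of D0 cells in these classes and at most 4.70% in any graft.

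By class, cells with at least 3 of the genes made up 24.9% of thinned progenitor-like cells in D0 and 0.21% to 1.68% in grafts. Among neuron-like cells they made up 15.1% and 0.09% to 0.23%. Among astrocyte-like cells the share was 18.4% in D0 (10.9% to 28.1%, from 87 cells), 0.38% (HIP) and 1.01% (PFC) at 2MPT, and 2.07% (HIP) and 4.70% (PFC) at 4MPT (3.06% to 6.86%). Astrocyte-like cells of the 4MPT grafts thus held the largest shares among these 3 classes of the grafts, and they remained below D0. Unthinned, the astrocyte-like shares were 84.7% in D0 and 1.38%, 13.7%, 35.0% and 26.1% in the same order of grafts.

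Between the stages, ADM was higher at 4MPT than at 2MPT over all human cells, and it was the only one of the 10 genes called by edgeR, against 1.85% of the 19074 genes tested that were called higher. It rose from 1.07 and 0.66 CPM to 5.97 and 9.73 CPM, with a log2 fold change of 3.26 ± 0.43 (adjusted p = 0.00350). EGLN3 (1.19 ± 0.29, adjusted p = 0.0655), BNIP3 (1.00 ± 0.26, adjusted p = 0.0799) and P4HA1 (0.94 ± 0.29, adjusted p = 0.157) had unadjusted p-values under 0.05 without passing the adjusted threshold. The median over the 10 genes was 0.68, beside -0.01 for all genes tested. BNIP3L had a log2 fold change of -0.04 ± 0.22.

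The ADM signal of the late grafts lay largely in 1 class. Oligodendrocyte-lineage-like cells, named after the lineage that leads to myelin-forming cells, numbered 35 in HIP_2MPT and 70 in PFC_2MPT but 961 in HIP_4MPT and 754 in PFC_4MPT. They held 107 of the 128 ADM UMIs of HIP_4MPT (83.6%) and 104 of the 164 of PFC_4MPT (63.4%), against 5 of 12 and 4 of 10 at 2MPT. Within the class, ADM measured 18.5 CPM in PFC_2MPT (4 UMIs), 30.7 CPM in HIP_4MPT and 50.9 CPM in PFC_4MPT. Most cells of the class (898 in HIP_4MPT, 652 in PFC_4MPT) lay in a cluster with OLIG1, EGFR and OLIG2 among its leading genes. Of 8 lineage markers, 5 reached 10 CPM there. In HIP_4MPT, ADM was highest in this cluster, at 32.7 CPM. The other cluster, with PDGFRA and MBP among its leading genes, had 63 and 102 cells in these libraries. The class name thus does not place ADM in myelin-forming cells. When this class was left out, a choice made after seeing the data, the log2 fold change of ADM was 2.39 with an adjusted p of 0.111 and none of the 10 genes was called. Without PFC_4MPT the log2 fold change of ADM was 2.82 with an adjusted p of 0.103. A rise of ADM within cells and a larger number of cells that hold it were not separated by the test over all cells.

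A second group of ADM-bearing cells was astrocyte-like. Of the 2 astrocyte-like clusters, the one led by SPARCL1, CST3 and AQP4 had 185 cells in HIP_4MPT and 142 in PFC_4MPT but 10 and 2 cells in the 2MPT grafts. ADM measured 17.1 CPM (95% interval 8.84 to 29.9) there in HIP_4MPT and 65.2 CPM (43.0 to 94.8) in PFC_4MPT. In the other astrocyte-like cluster ADM stayed at 0.00 to 5.12 CPM in the 4 grafts, from 0 to 6 UMIs per library.

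Among astrocyte-like cells, 2 of 8 genes tested were higher at 4MPT than at 2MPT by edgeR, BNIP3 and EGLN3, against 2.25% of the 11677 genes tested that were called higher. ADM and NDRG1 had too few UMIs to be tested there. BNIP3 in astrocyte-like cells measured 81.4 and 113 CPM in the HIP and PFC grafts of 2MPT and 211 and 256 CPM in those of 4MPT. The stages did not overlap (log2 fold change 1.29 ± 0.26, adjusted p = 0.0173), and D0 lay above them all at 585 CPM. This call was lost without HIP_4MPT (adjusted p = 0.348) or without PFC_4MPT (adjusted p = 0.0902).

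EGLN3 in astrocyte-like cells measured 4.07 CPM (HIP, from 2 UMIs) and 20.5 CPM (PFC) at 2MPT, and 47.3 CPM (HIP) and 46.7 CPM (PFC) at 4MPT. The 4MPT grafts lay above the 37.4 CPM of D0, with Poisson intervals that overlapped (26.5 to 51.4 CPM in D0, 39.7 to 55.9 CPM in HIP_4MPT). The log2 fold change between the stages was 1.72 ± 0.42 with an adjusted p of 0.0464, and 8 of 13 alternatives did not pass, among them DESeq2 (adjusted p = 0.0899) and the fit without HIP_4MPT (adjusted p = 0.605). P4HA1 (48.9 and 84.7 CPM at 2MPT, 147 and 120 CPM at 4MPT) had a log2 fold change of 1.00 ± 0.29 and an adjusted p of 0.0970. The astrocyte-like cluster found at both stages gave 77.9, 113, 208 and 241 CPM for BNIP3 and 4.21, 20.6, 53.2 and 51.2 CPM for EGLN3 in HIP_2MPT, PFC_2MPT, HIP_4MPT and PFC_4MPT, so that both orders were seen within it too.

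In progenitor-like cells none of the 10 genes was called between the stages by edgeR or by DESeq2, against 0.906% of genes tested, and 1 gene had an unadjusted p under 0.05, BNIP3 (log2 fold change 1.09 ± 0.40, adjusted p = 0.418). In neuron-like cells none was called by either tool, against 1.12% of genes tested, and none had an unadjusted p under 0.05 by edgeR. BNIP3L in neuron-like cells had a log2 fold change of -0.10 ± 0.26 between the stages, which overlapped (adjusted p = 0.943).

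Between the graft sites, none of the 10 genes was called over all human cells by edgeR with the stage as a covariate, nor by DESeq2, while 0.0876% of the 17121 genes tested were called by edgeR. The fit had 1 residual degree of freedom. There were 2 genes with an unadjusted p under 0.05, ANKRD37 (log2 fold change of PFC over HIP 0.79 ± 0.33, unadjusted p = 0.0213) and DDIT4 (0.69 ± 0.32, unadjusted p = 0.0353), both with an adjusted p of 1.00. ANKRD37 was higher in PFC at both stages, by 1.93-fold at 2MPT and 1.46-fold at 4MPT, and so was DDIT4, by 1.42-fold and 1.72-fold.

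The same result was found within classes. None of the genes was called by edgeR or DESeq2 in progenitor-like cells (8 genes tested, against 0.00837% of all genes tested), neuron-like cells (9 genes tested, against 0.0443%) or astrocyte-like cells (8 genes tested, against 0.188%), and in each class 2 genes had an unadjusted p under 0.05 by edgeR. In neuron-like and astrocyte-like cells these were ANKRD37 and DDIT4, and in progenitor-like cells ANKRD37 and BNIP3. DDIT4 in neuron-like cells measured 16.8 CPM in HIP_2MPT and 20.6 in PFC_2MPT, and 12.2 in HIP_4MPT and 30.6 in PFC_4MPT (log2 fold change 0.87 ± 0.34, adjusted p = 1.00).

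Genes for HIF subunits and for the control of HIFs by oxygen were called in both directions. Of 8 further HIF subunits and sensors, 3 were lower and 2 higher in grafts than in D0 by edgeR over all human cells, with a median log2 fold change of -0.61. Of all 19074 genes tested, 24.1% were lower and 29.2% higher, so that these counts were near the shares over all genes. The lower genes were HIF3A, an alpha subunit whose short forms restrain the others (77.6 CPM in D0, 8.06 to 10.2 in grafts), the main oxygen sensor EGLN1 (63.4 CPM, 25.2 to 27.3) and VHL (28.6 CPM, 13.3 to 23.3). ARNT2, the neuronal partner of the alpha subunits, was higher in grafts (10.4 CPM in D0, 39.9 to 53.0 in grafts, log2 fold change 1.81 ± 0.29, adjusted p = 0.000511). The hydroxylase gene EGLN2 was called higher as well, at 2.22 CPM in D0 and 24.9 to 43.9 in grafts, but the annotation used for D0 lists an overlapping readthrough gene that the graft annotation lacks, so this value is uncertain. EPAS1 (1.18 CPM in D0, 0.33 to 1.19 in grafts), ARNT (16.3, 23.6 to 28.0) and the asparagine hydroxylase gene HIF1AN (16.9, 13.5 to 25.6) were not called.

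Other genes known as HIF targets were mostly lower in grafts, where 24.1% of all 19074 genes tested were lower and 29.2% higher. Of 28 tested genes in a list of non-glycolytic targets, 19 were lower, 1 was higher and 8 were not called by edgeR, with a median log2 fold change of -1.81. The most abundant were WSB1, part of a ubiquitin ligase (471 CPM in D0, 175 to 228 in grafts), the MYC antagonist MXI1 (142 CPM, 74.3 to 120), both lower, and the nuclear receptor gene RORA (30.1 CPM, 83.5 to 243), which was higher. Of 19 glycolytic targets, 16 were lower and 3 were not called, with a median of -2.00. TPI1 measured 1123 CPM in D0 and 217 to 264 in grafts, and ENO1 943 and 140 to 182. GAPDH fell by 1.59 on the log2 scale (edgeR adjusted p = 0.000644), to 1289 to 1776 CPM in grafts. These 3 encode glycolytic enzymes, and the grafts of each lay below D0.

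Receptors of VEGFA and ADM were counted in the same way, beside 29.2% of all genes tested that were higher in grafts and 24.1% that were lower. Of 6 tested, 4 were higher in grafts (NRP1, RAMP2, RAMP3 and CALCRL), 1 was lower (NRP2) and 1 was not called (RAMP1) by edgeR, with a median log2 fold change of 1.58. NRP1, a coreceptor of VEGFA that also guides axons, measured 8.80 CPM in D0, 284 (HIP) and 210 (PFC) at 2MPT, and 105 (HIP) and 106 (PFC) at 4MPT (log2 fold change 3.87 ± 0.34, adjusted p = 1.31e-05). RAMP2, which joins CALCRL to form the ADM receptor, measured 32.9 CPM in D0 and 66.5 to 87.9 in grafts (0.94 ± 0.28, adjusted p = 0.0171). RAMP1 measured 8.12 CPM in D0, 4.65 and 3.63 at 2MPT, and 52.6 and 42.6 at 4MPT. NRP2, the close relative of NRP1, moved against it, from 38.1 CPM in D0 to 2.11 to 5.13 CPM in grafts (log2 fold change -3.81). It was named after its values were seen, as was CALCRL, which rested on 4 to 52 UMIs per library.

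Of 8 mitophagy genes other than BNIP3 and BNIP3L, 5 were lower and 2 not called in grafts by edgeR, with a median of -0.78. For this list and the next, 24.1% of all genes tested were lower and 29.2% higher. PHB2 (227 CPM in D0, 132 to 171 in grafts) and MAP1LC3B (160 CPM, 114 to 123), which encode a mitophagy receptor and an autophagosome protein, were lower. Of 5 partners of P4HA1 in collagen hydroxylation, 3 were lower, none was higher and 2 were not called, and P4HB, the other subunit of the enzyme, measured 166 CPM in D0 and 39.6 to 49.5 in grafts. CRTAP was lower (54.2 CPM, 11.2 to 13.0), and P3H1 (15.5 CPM, 10.3 to 16.1) was not called.

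DDIT4 also answers to the integrated stress response and to glucocorticoids, so genes of these programmes were counted beside it. The shares over all genes tested were 24.1% lower in grafts and 29.2% higher. Of 10 targets of the integrated stress response, 8 were lower in grafts and 2 were not called by edgeR (median -1.32), with ATF4 at 170 CPM in D0 and 56.2 to 162 in grafts and PHGDH at 164 and 38.9 to 122. PSAT1 (91.2 CPM in D0, 38.9 to 120 in grafts) was not called. Of 7 glucocorticoid targets, 5 were lower, 1 was higher and 1 was not called (median -1.12). TSC22D3 (56.5 CPM in D0, 5.29 to 11.98 in grafts) and PER1 (24.0 CPM, 4.16 to 8.31) were lower, and SGK1 (14.8 CPM, 27.2 to 36.2) was higher. The part of these programmes in the level of DDIT4 was not tested.

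Genes that respond to tissue handling were measured beside these results. Of 8 immediate early genes, which are induced rapidly on stimulation, 6 were higher in grafts and 2 were not called by edgeR (median 1.61), beside 29.2% of all genes tested that were called higher. FOS measured 404 CPM in D0 and 1482 to 2646 in grafts, IER2 248 and 1296 to 2102, and EGR1 286 and 737 to 1422. Of 7 heat shock genes, 4 were lower, 1 was higher and 2 were not called (median -0.84), where 24.1% of all genes tested were lower and 29.2% higher. HSP90AA1 was lower (1602 CPM in D0, 818 to 1429 in grafts), HSPA1A was higher (49.3 CPM, 51.2 to 468) and HSPA1B (92.9 CPM, 31.4 to 223) was not called. HSPA1A and HSPA1B are near-identical copies, and reads can be split between them. Summed markers of endothelial and mural cells were at 20.2 CPM in D0 and 8.53 to 12.8 in grafts, and those of microglia at 13.8 and 1.92 to 8.04, with 1 of 6 microglial markers at 0 in all libraries. The part of these programmes in the levels of the 10 genes was not tested.

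Between 4MPT and 2MPT few genes of these lists were called by edgeR over all human cells, where 1.85% of all genes tested were called higher. Of the non-glycolytic HIF targets 2 of 28 were higher, PLOD2 (log2 fold change 1.49) and BHLHE41 (4.82), and of the glycolytic targets 1 of 19, ALDOC (1.58). Of the receptors, RAMP1 (3.58) and CALCRL (2.99) were higher and NRP1 was lower (-1.17), beside 0.550% of all genes tested that were called lower. Apart from NRP1 and RAMP1, these were named with their values in view. None of the genes was called in the lists of HIF subunits, mitophagy, collagen hydroxylation, integrated stress response, glucocorticoid, immediate early and heat shock genes. Between PFC and HIP 1 heat shock gene was called, HSPA6 (3.17, higher in PFC), and no gene of the other lists, beside 0.0876% of all genes tested.

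Outside the 10 genes, the patterns most like their mean were sought over 23 points, each a library within a cell class, by Pearson's r with the mean of the 10 standardized levels. The highest were ZMAT3 (r = 0.96), CASZ1 (0.95), BHLHE40 (0.93), SIX4 (0.93) and SNHG18 (0.92). Over all human cells of D0, ZMAT3 measured 137 CPM and BHLHE40, a transcription factor of the clock and of hypoxia, 49.6 CPM, and in the grafts they measured 7.33 to 15.8 and 0.13 to 1.68 CPM. Among the 10 genes themselves, r with the mean that includes them was 0.94 for DDIT4, 0.73 for ANKRD37, 0.28 for HIF1A and 0.26 for NDRG1. The points share libraries and depth, and D0 stands apart from the grafts for most of the genes, so these values are descriptions without a test.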

How the data were processed

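Droplet single-cell RNA libraries (10x Chromium 3′ V3, NovaSeq) were made from dissociated organoids and grafts. The authors deposited UMI counts per gene and cell barcode. Labels name Cell Ranger 3.1 and GRCh38, the matrix headers name 3.1.0 for D0 and 5.0.0 for the grafts, and whether introns were counted was not given in the sources used here. The graft matrices also exist on a joint human and mouse reference, from which the human share of each barcode was taken. Only the 32732 genes listed in both annotations were used.

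Human cells had UMIs and genes above 500 each, log10 genes divided by log10 UMIs above 0.8, a mitochondrial share under 0.15 and, in grafts, a human share above 0.8. No doublet caller was run. Human cells gave 55892222 UMIs in D0 and 11192237 to 21459173 in each graft. Cells were clustered in Seurat 5.3.0 (sctransform 0.4.2, R 4.3.3; 2500 variable genes without the 10 genes and the HIF lists, 40 components, resolution 0.8). Clusters were named when at least 3 markers of a type reached 10 CPM and the markers' mean log2 fold exceeded 0.25. There was 1 cluster that stayed unnamed, with mitochondrial-like genes such as MTRNR2L10 and MTRNR2L6 among its leading genes. PFC_4MPT held 957 of its 1423 cells, and its depth was 0.46 of the library median. The named genes were the 10 genes, all HIF subunits and sensors, the 3 most abundant genes of every other list, and the 5 genes most like the 10. The result for 1 gene of the mitophagy list is not reported here. The 10 genes and the lists were chosen with earlier results of these data known.

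UMIs were summed per library and class and tested in edgeR 4.0.16 (filterByExpr, TMM, quasi-likelihood test, Benjamini-Hochberg adjustment over all genes tested, threshold 0.05). D0, 2MPT and 4MPT formed 3 groups with 2 residual degrees of freedom. Graft sites were compared over the 4 grafts with the stage as a covariate. Astrocyte-like cells were tested without D0. Alternatives were DESeq2 1.42.0, library totals, no filter, other cell filters, the joint reference, resolution 1.6, graft site as a replicate block, and leaving out each graft library. The test was also run on simulated counts that gave every library, D0 included, the fitted spread. That run could not check the assumption that D0 varies like the grafts. CPM scale the UMIs of a gene by all human UMIs of the cells in question, with exact 95% Poisson intervals. Levels were not divided by gene length. They are compared within a gene, apart from sums over genes and the ranking of genes by abundance. Cells were thinned to 1000 UMIs for shares, with Clopper-Pearson intervals. Intervals and limits from 3 counts cover counting error only. Other software was Python 3.11.15, numpy 2.4.6, scipy 1.17.1, pandas 2.3.3 and matplotlib 3.10.9. Promoter windows came from RefSeq (GRCh38.p14).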

Additional observations from a re-analysis of the deposited data

Results flagged for a closer look

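NDRG1 moved in opposite directions between the stages at the 2 graft sites. In HIP its level at 4MPT was 0.264 of that at 2MPT, and in PFC it was 1.44 times that at 2MPT. The difference was not tested, because each site and stage had 1 library.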

How the results depend on the processing

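Between grafts and D0 over all human cells, VEGFA, BNIP3, ADM, P4HA1, ANKRD37, EGLN3, DDIT4 and BNIP3L kept their calls in 12 of 12 alternatives, with 8 or 9 of the 10 genes called in each. The shares of all genes called lower in these alternatives are not given here. NDRG1 in progenitor-like cells was not called with DESeq2 (adjusted p = 0.145), and in neuron-like cells its log2 fold change of 0.37 ranged from -0.16 (without PFC_4MPT) to 0.64 on leaving out a library. Between 4MPT and 2MPT, the 1 gene called over all cells became 3 with DESeq2, 4 without a filter on low counts, 2 with a human share over 0.9, 2 with a mitochondrial share under 0.10 and 0 without oligodendrocyte-lineage-like cells, and 0 to 5 on leaving out a library (0 without PFC_4MPT, 5 without PFC_2MPT). In progenitor-like cells the count of 0 became 1 without the filter and 0 to 1 on leaving out a library (1 without PFC_2MPT). In astrocyte-like cells the count of 2 became 1 with DESeq2, with library totals, with a human share over 0.9, with the joint reference and at resolution 1.6, and 0 to 3 on leaving out a library (0 without HIP_4MPT or PFC_4MPT). The difference between neuron-like and progenitor-like cells passed for 2 genes, 0 with DESeq2 and 1 to 3 on leaving out a library. The shares of cells with at least 3 of the genes without thinning were 79.7% in D0, 0.43% and 3.85% in the HIP and PFC grafts of 2MPT and 8.51% and 4.83% in those of 4MPT. The causes of these shifts were not tested.

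The labels give no numbers that pair libraries, and graft site was used as a replicate block between the stages. With this block 1 gene was called over all cells, 0 in progenitor-like, 0 in neuron-like and 3 in astrocyte-like cells, where P4HA1 then passed (log2 fold change 1.04, adjusted p = 0.0254). Leaving out a library leaves no residual degrees of freedom for the comparison of sites and was not run there.

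Among all genes, calls between 4MPT and 2MPT numbered 457 over all cells (1347 without the filter, 296 without oligodendrocyte-lineage-like cells, 32 to 1508 on leaving out a library), 123 in progenitor-like (287 without the filter, 40 to 394), 197 in neuron-like (815, 96 to 705) and 356 in astrocyte-like cells (224 with DESeq2, 758, 10 to 745). Between PFC and HIP they numbered 15 over all cells (7 with DESeq2, 36 without the filter, 33 without oligodendrocyte-lineage-like cells), 1 in progenitor-like (24 without the filter), 7 in neuron-like (26 with library totals, 29 without the filter, 30 without the heat-shock-led cluster) and 22 in astrocyte-like cells (1 with DESeq2, 1 with library totals). The class difference was called for 1047 genes (505 with DESeq2, 1634 without the filter). With 1 library in D0 and a graft depth of 1253 to 2759 UMIs per cell, low genes such as ADM rest on few UMIs.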

Other observations

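The mouse counterparts of the 10 genes were measured in host cells that entered the graft libraries, taken as barcodes with a human share under 0.2 and more than 500 mouse UMIs. These cells numbered 916 and 772 in the HIP and PFC grafts of 2MPT and 2071 and 1202 in those of 4MPT. The summed level of the 10 genes was 426 (HIP) and 477 (PFC) CPM of mouse UMIs at 2MPT and 480 (HIP) and 690 (PFC) CPM at 4MPT, and with a human share under 0.1 it was 410, 481, 490 and 702 CPM. Vegfa measured 61.3, 9.30, 14.3 and 28.4 CPM in the same order, Adm 0.78, 1.64, 8.74 and 13.8 CPM, and Ndrg1 45.0, 45.4, 81.0 and 106 CPM. Both 4MPT libraries lay above both 2MPT libraries for Adm and Ndrg1 in host cells, and for Vegfa the stages overlapped. The types of the host cells were not set, no test was run on these values, and human RNA in these droplets was not modelled.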
